A study of Homo sapiens with 11 samples.

Results

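Replicate B of the cultures grown with epidermal growth factor (EGF) was compared with replicate C grown in the same medium, which gives 4 of the 11 libraries in the series, 2 from each replicate. The cells were hTert-HME1, a telomerase-immortalised line of human mammary epithelium, at passage 6. In each replicate 1 library carried the control-2 siRNA and 1 the BRCA2-1 siRNA, and the siRNA entered the comparison as a block. All 4 cultures were transfected with RNAiMAX and grown in a mammary epithelial growth medium with its EGF, and their total RNA was depleted of ribosomal RNA with RiboZero and sequenced from ScriptSeq v2 libraries. The other libraries were replicate A (4 libraries, both siRNAs with and without EGF) and the cultures of B and C without EGF (3 libraries: BRCA2 siRNA from B, and both siRNAs from C). Each replicate letter is 1 set of cultures of 1 cell line with 1 siRNA per target, and a difference in handling, RNA extraction, library preparation or sequencing between the letters cannot be told apart from a difference in the state of the cells. The comparison was picked because B and C had been seen to differ with EGF, so its values and counts are given as a description. Adjusted p-values in the chosen libraries serve only to sort genes into called and not called. Tests are read as results only for libraries that this choice did not use. The difference between media had 1 term that was used, so its counts are given as a description too.

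The comparison covers 17945 of the 40460 genes in the deposited table, those with a log2 value of 3.32 or more in at least 2 of the 11 libraries. The second-highest library of the lowest gene kept stood at 3.3221, and that of the highest gene left out at 3.3218. The table gives log2 values and no counts, and sequencing depth is therefore unknown. In the 4 libraries 16668 to 16812 genes reached 3.32, the median of the genes tested was 8.55 to 8.58, and mitochondrially encoded mRNAs made up 0.369% and 0.314% of the summed linear values in B against 0.517% and 0.366% in C (control siRNA first, as throughout). BRCA2 (ENSG00000139618), the gene the siRNA was made against, stood at 12.13 and 12.37 in B and at 12.48 and 12.40 in C. Within B it was higher in the library labelled BRCA2 siRNA than in the control, and within C the 2 were 0.08 apart, so siRNA groups are named by their labels only.

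Epithelial cells in culture depend on EGF for growth, and receptor signalling through MAPK drives the cyclins and the replication genes that open S phase. Stressed cells slow this programme. In the integrated stress response, kinases that sense amino acid shortage, unfolded protein or viral RNA phosphorylate eIF2-alpha, which lowers translation and lets the transcription factor ATF4 induce genes of amino acid synthesis and import, while the unfolded protein response adds ER chaperones through XBP1 and ATF6. NF-kB drives inflammatory cytokines, and sterol and fatty acid synthesis genes follow the SREBP factors, which are held in the ER by INSIG1 when sterols are plentiful.

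Promoters of members of 4 of the gene groups that differed are shown because they hold short motifs known for the factor named with each group. Sequences are the 250 bases before the RefSeq start of each gene in GRCh38.p14, 5′ to 3′ on the gene's strand, with every match in capitals. The expression values were made on hg19, so these coordinates serve only to locate the sequences. The motifs were searched on both strands over the 250 bases before and 50 bases after the start. TGATGNAAN stands for the composite site of ATF4 with C/EBP factors, CCAAT and CCACG with 9 bases between them for the ER stress element, GGG and TTTCC with 2 bases between them for NF-kB, and TTTNNCGC for E2F. The promoters lie at chr1:212565157-212565406 (+) for ATF3, chr9:125241344-125241593 (-) for HSPA5, chr22:28800570-28800819 (-) for XBP1, chr7:22726950-22727199 (+) for IL6, chr4:74038690-74038939 (-) for CXCL3, chr20:5126623-5126872 (-) for PCNA and chr2:135876444-135876693 (-) for MCM6.
ATF3: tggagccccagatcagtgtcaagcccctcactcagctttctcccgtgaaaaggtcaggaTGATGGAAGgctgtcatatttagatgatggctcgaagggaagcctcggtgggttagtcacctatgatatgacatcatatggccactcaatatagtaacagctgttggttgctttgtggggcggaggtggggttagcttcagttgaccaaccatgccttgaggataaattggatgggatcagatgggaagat
HSPA5: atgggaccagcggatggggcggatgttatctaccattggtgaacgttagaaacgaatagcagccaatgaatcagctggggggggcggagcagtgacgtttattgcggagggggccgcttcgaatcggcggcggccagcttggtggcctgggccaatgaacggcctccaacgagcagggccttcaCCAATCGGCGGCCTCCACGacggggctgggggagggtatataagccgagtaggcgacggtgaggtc
XBP1: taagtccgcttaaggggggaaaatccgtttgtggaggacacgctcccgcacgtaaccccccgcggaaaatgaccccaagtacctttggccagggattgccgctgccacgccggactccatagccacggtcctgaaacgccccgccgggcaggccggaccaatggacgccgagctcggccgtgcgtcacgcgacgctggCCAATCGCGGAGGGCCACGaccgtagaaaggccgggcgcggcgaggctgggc
IL6: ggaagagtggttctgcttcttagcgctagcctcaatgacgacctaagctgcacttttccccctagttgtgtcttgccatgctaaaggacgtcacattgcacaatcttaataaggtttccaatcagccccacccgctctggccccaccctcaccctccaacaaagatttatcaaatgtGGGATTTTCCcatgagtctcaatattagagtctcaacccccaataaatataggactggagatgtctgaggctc
CXCL3: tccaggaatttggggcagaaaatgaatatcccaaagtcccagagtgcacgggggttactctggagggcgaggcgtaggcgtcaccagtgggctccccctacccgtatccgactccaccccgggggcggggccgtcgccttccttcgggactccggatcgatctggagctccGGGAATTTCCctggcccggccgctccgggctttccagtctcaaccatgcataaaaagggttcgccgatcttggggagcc
PCNA: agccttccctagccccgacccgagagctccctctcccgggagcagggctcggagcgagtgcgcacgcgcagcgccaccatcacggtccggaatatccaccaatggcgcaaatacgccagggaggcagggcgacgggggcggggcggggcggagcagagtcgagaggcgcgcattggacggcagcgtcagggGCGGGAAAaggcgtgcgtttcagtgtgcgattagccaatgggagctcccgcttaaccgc
MCM6: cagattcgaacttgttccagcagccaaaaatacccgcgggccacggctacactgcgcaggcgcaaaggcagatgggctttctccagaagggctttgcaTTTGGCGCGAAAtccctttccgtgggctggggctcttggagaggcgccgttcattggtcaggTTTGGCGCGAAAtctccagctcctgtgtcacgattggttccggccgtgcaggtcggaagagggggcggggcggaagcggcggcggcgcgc
In ATF3 the match TGATGGAAG lay at positions -191 to -183, counted from the start. The matches of HSPA5 and XBP1 began at -66 and -52, and those of IL6 and CXCL3 at -73 and -79. In PCNA the E2F letters lay on the opposite strand (GCGGGAAA). MCM6 held 2 copies of TTTGGCGCGAAA, in each of which matches on the 2 strands overlap.

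Of the members past the filter with a promoter entry, the E2F letters were found in 23 of 38 DNA replication genes (60.5%) and in 6.9% of all 27305 promoters. NF-kB letters were in 9 of 18 NF-kB and cytokine genes (50%, against 1.9%). The ER stress element was in 7 of 23 unfolded protein response genes (30.4%, against 0.1%), and the ATF4 letters were in 6 of 31 ATF4-group genes (19.4%, against 3.7%). The sterol element TCACNCCAC was in 1 of 18 sterol genes (5.6%, against 1.1%). These lists hold textbook targets of the factors, so the shares describe the lists and not the 4 libraries.

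With EGF, replicate B stood above replicate C in most genes of the ATF4, NF-kB, EGF receptor ligand, unfolded protein response and aminoacyl-tRNA synthetase lists. It stood below C in most genes of DNA replication, sterol synthesis and heat shock. The other stress and inflammation lists went both ways. IL6, the ligand HBEGF, the pentraxin PTX3 and the sestrin SESN2 were 5-fold or more higher in B, and FAM111B and HMGCS1 5-fold or more lower. An adjusted p under 0.05 in limma was reached by 7001 of the 17945 genes (39.0%), and 548 of them differed 2-fold or more. Of those called 3763 were higher in B (53.7%) and 3238 lower. These were 21% and 18% of all genes tested. Because the comparison was chosen for this contrast, these shares are the background for the counts below and nothing is read from them. Without the control library of replicate B the count was 4026, and with no filter on low values it was 0 (6892 at an unadjusted p under 0.05).

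The contrast was present with either siRNA. B minus C was computed within the control siRNA pair and within the BRCA2 siRNA pair, which share no library. Across the 17945 genes the 2 differences had a Pearson r of 0.76 and the same sign in 76.9% of genes (a description over genes, which are not independent replicates). The SD over genes was 0.48 in the control pair, with a range of -2.95 to 3.51, and 0.43 in the BRCA2 siRNA pair, with a range of -2.70 to 4.0. Both B libraries lay above both C libraries in 6331 genes (35.3%) and below both in 5867 (32.7%). Differences of 2-fold or more with each siRNA were found in 234 genes higher in B (1.30%) and 160 lower (0.892%). The highest single gene on the log2 scale was IL1RL1, a receptor for interleukin-33, named here after its values were seen since it is below the median expression that the naming rule asks for. Its values were 7.13 and 7.40 in B and 3.84 and 3.40 in C.

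**Figure D1:**
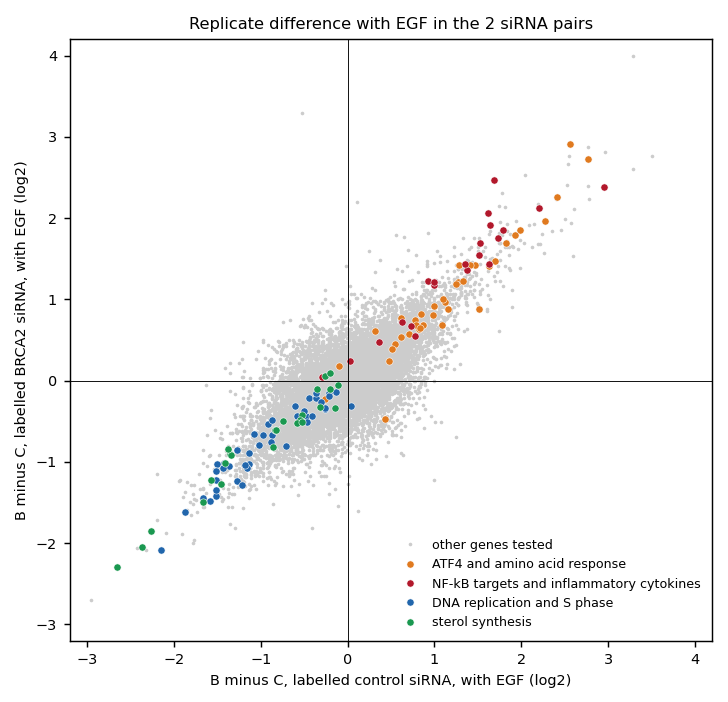
Each point is 1 of the 17945 genes, with B minus C in the control siRNA pair on the horizontal axis and in the BRCA2 siRNA pair on the vertical axis, both on the log2 scale and with EGF. Members of the ATF4 and NF-kB lists lie mostly in the upper right and those of the DNA replication and sterol lists mostly in the lower left, and over all genes r was 0.76.

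The integrated stress response genes were the broadest group on the higher side. Of 39 members of the ATF4 and amino acid list, all of which passed the filter, 36 were higher in B, 1 was lower and 2 were not called, and the list median was 0.96 against 0 for all genes tested. SESN2 (ENSG00000130766), a leucine sensor that restrains mTORC1, stood at 12.54 and 12.57 in B and at 10.13 and 10.31 in C. The difference was 2.33 ± 0.08 (SE of the model, n = 2 and 2) or 5.04-fold. Here and below this SE is shared by genes of one level and does not measure the spread of a gene's own libraries. PPP1R15A (ENSG00000087074), the phosphatase subunit that reverses eIF2-alpha phosphorylation, stood at 14.87 and 14.70 against 12.59 and 12.74 (2.12 ± 0.09, 4.34-fold). ATF3, a transcription factor induced by ATF4, stood at 11.63 and 11.56 against 9.65 and 9.72 (1.91 ± 0.09, 3.76-fold). In all 3 the libraries of one replicate lay within 0.2 of each other and far from the other replicate.

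The secreted hormone stanniocalcin STC2 was at 8.15 and 8.32 in B and at 5.39 and 5.59 in C, a difference of 2.75 ± 0.16. TRIB3, a pseudokinase that feeds back on ATF4, differed by 1.76 ± 0.08 and the cystathionine synthase CBS by 1.58 ± 0.09. The member that ran the other way was ALDH18A1, the first enzyme of proline synthesis, at -0.25. Among the 20 aminoacyl-tRNA synthetases, which charge tRNAs with amino acids and which ATF4 also induces in part, 13 were higher and 1 lower, with a median of 0.46. CARS1 was 2.01-fold higher, at 12.72 and 12.73 against 11.62 and 11.81, MARS1 differed by 0.92 ± 0.09, AARS1 by 0.80 ± 0.09 and SARS1 by 0.73 ± 0.10. The arginine enzyme RARS1 was the one lower, at -0.33.

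In the unfolded protein response list 14 of 24 genes were higher, none was lower (1 under quantile normalization) and 10 were not called, with a median of 0.34. The sensor was among the largest differences: ERN1 (ENSG00000178607), the ER membrane kinase and ribonuclease that splices XBP1 mRNA, stood at 11.80 and 11.65 in B and at 9.61 and 9.47 in C (2.18 ± 0.09, 4.54-fold). DNAJB9, an ER co-chaperone, stood at 11.69 and 11.44 against 9.54 and 9.51 (2.04 ± 0.09). The transcription factor XBP1 stood at 14.06 and 14.14 against 12.80 and 12.86 (1.27 ± 0.09). HSPA5, the main ER chaperone, was at 15.08 and 14.76 against 14.18 and 13.98 (0.84 ± 0.10), and ATF6 and HERPUD1 differed by 0.81 and 0.84.

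Cytosolic chaperones differed in the opposite direction. Of 19 heat shock genes past the filter (20 in the list) 12 were lower in B, 1 was higher and 6 were not called, and the median was -0.39. HSPA8 (ENSG00000109971), the constitutive HSP70, stood at 15.12 and 15.20 in B and at 17.03 and 17.09 in C, 3.74-fold lower in B (-1.90 ± 0.13). The stress-inducible HSPA1A was at 10.24 and 10.17 against 12.02 and 12.17, 3.71-fold lower (-1.89 ± 0.08). HSPA1B was at 10.63 and 10.58 against 12.40 and 12.54, but it is nearly identical to HSPA1A in sequence, so how reads were shared between the 2 genes is uncertain. The co-chaperones DNAJA1, AHSA1 and HSPH1 differed by -1.12, -0.92 and -0.51. CHORDC1, an HSP90 co-chaperone, was the member called higher, at 0.20, and no member was called higher under quantile normalization, with 6 or 11 libraries in the fit or without either B library or the BRCA2 siRNA library of C.

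Inflammatory genes had the highest list median. Of 28 NF-kB targets and cytokines 21 passed the filter, 19 were higher in B, none was lower (1 under quantile normalization) and 2 were not called, with a median of 1.39. IL6 (ENSG00000136244), an acute-phase cytokine, stood at 9.05 and 8.46 in B and at 6.10 and 6.09 in C (2.66 ± 0.15, 6.34-fold). IL1A (ENSG00000115008), an alarmin of epithelial cells, stood at 15.16 and 15.20 against 12.97 and 13.08 (2.16 ± 0.10, 4.48-fold). BIRC3, an inhibitor of apoptosis in TNF signalling, stood at 14.48 and 14.57 against 12.69 and 12.72 (1.82 ± 0.09). Both replicates were tight for IL1A and BIRC3, while the 2 B libraries of IL6 were 0.6 apart.

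The cyclooxygenase PTGS2 differed by 1.78 ± 0.10, the chemokine CXCL3 by 1.74 ± 0.09 and the receptor-proximal kinase IRAK2 by 1.61 ± 0.09. PTX3 (ENSG00000163661), a secreted pattern-recognition protein, was at 13.18 and 13.24 against 10.65 and 10.83 (2.47 ± 0.08, 5.54-fold). Of 14 secreted proteases and inhibitors past the filter 9 were higher and 3 lower, with a median of 0.35 (0 lower without the control library of B, and 1 without the BRCA2 siRNA library of B or the control library of C). The plasminogen activator inhibitor SERPINB2 differed by 1.75 ± 0.18 and the stromelysin MMP10, which was near the filter at 3.47 and 3.31 in C, by 1.47 ± 0.23. Interferon-stimulated genes did not share the direction. In that list 5 of 28 were higher and 9 lower, with a median of -0.06. Leaving out 1 library gave 3 and 6 (BRCA2 siRNA of B), 2 and 7 (BRCA2 siRNA of C), 2 and 5 (control of B) or 4 and 5 (control of C). Among the members the transcription factor IRF1 was at 0.74, and the antiviral genes IFI44, IFIT1 and OAS3 at -1.29, -1.22 and -1.06.

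Ligands of the EGF receptor were higher in B although both replicates had EGF in the medium. Of 11 members of the receptor family list past the filter 8 were higher and 1 lower, with a median of 0.85. HBEGF (ENSG00000113070), a membrane-anchored ligand, stood at 11.26 and 11.45 in B and at 8.72 and 8.78 in C (2.60 ± 0.09, 6.08-fold). Epiregulin, EREG, stood at 13.63 and 14.08 against 12.31 and 12.32 (1.54 ± 0.09). Neuregulin NRG1, a ligand of ERBB3 and ERBB4, differed by 1.42 ± 0.08, EPGN by 1.00 ± 0.09 and amphiregulin AREG by 0.85 ± 0.10. The feedback inhibitor of the receptor, ERRFI1, differed by 1.58 ± 0.09. The receptor gene EGFR was called higher in B, at 0.84. The receptor gene ERBB2 was the member called lower in B, at -0.23. No member was called lower with 6 or 11 libraries in the fit, under median centring or without either B library or the control library of C.

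Downstream of the receptor, 19 of 30 MAPK feedback and immediate-early genes were higher in B and 4 lower, with a median of 0.35. MAFF, a small MAF transcription factor, stood at 11.70 and 11.70 in B and at 9.95 and 10.11 in C (1.67 ± 0.09). PHLDA1 differed by 1.43 ± 0.09, and the MAPK phosphatases DUSP1 and DUSP5 by 1.21 and 1.11. The 4 on the other side were CCND1, the D-type cyclin of early growth factor response, at -0.72, DUSP4 at -0.57, FOS at -0.50 and ETV1 at -0.34.

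**Figure D2:**
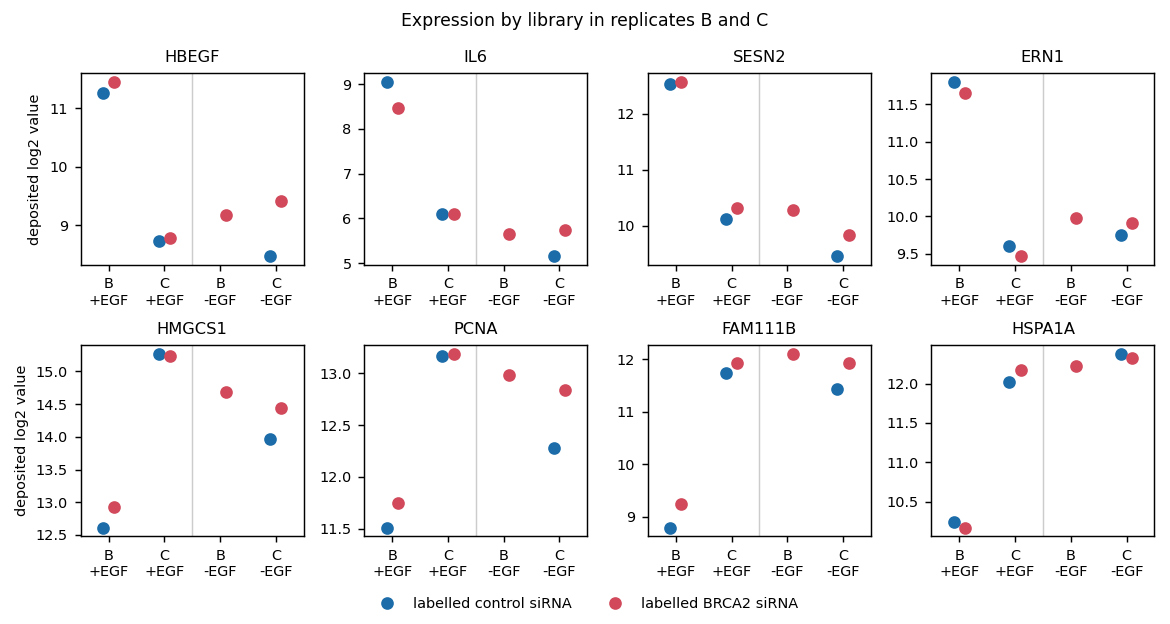
Each panel plots the deposited log2 values of 1 gene in the 4 libraries with EGF and the 3 without EGF of replicates B and C, coloured by siRNA label (1 point is 1 library, and the vertical axes do not start at 0). With EGF the B and C points are separate in all 8 genes, which were chosen for their difference, and without EGF the B library lies close to the C library with the same siRNA.

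DNA replication genes were lower in B almost throughout. All 45 members in the table passed the filter, 41 were lower in B, none was higher and 4 were not called, and the median was -0.82. CCNE2 (ENSG00000175305), the cyclin that drives entry into S phase with CDK2, stood at 7.03 and 7.22 in B and at 9.18 and 9.30 in C, 4.34-fold lower in B (-2.12 ± 0.13). ORC1 (ENSG00000085840), the largest subunit of the origin recognition complex, stood at 8.71 and 9.03 against 10.59 and 10.64 (-1.74 ± 0.10). PCNA, the sliding clamp of DNA polymerases, stood at 11.51 and 11.75 against 13.17 and 13.19 (-1.56 ± 0.08). The control siRNA library had the lower value of the B pair in each of these 3 genes.

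The replication factor MCM10 differed by -1.53 ± 0.09 and the helicase subunits MCM3 and MCM6 by -1.37 and -1.26. FAM111B (ENSG00000189057), a nuclear protease, had the most negative difference of all genes tested: it stood at 8.79 and 9.24 in B and at 11.74 and 11.94 in C, 7.07-fold lower in B (-2.82 ± 0.09). SKP2 (ENSG00000145604), the ubiquitin ligase subunit that marks the CDK inhibitor p27 for degradation, stood at 9.67 and 9.82 against 11.76 and 11.69 (-1.98 ± 0.09). CDKN1B, which encodes p27, was higher in B, at 11.51 and 11.45 against 10.68 and 10.86 (0.72 ± 0.08).

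Other cell cycle lists differed less. Of 27 replication-dependent histone genes past the filter 19 were lower and 2 higher, with a median of -0.56; H3C13 was at -1.39, H1-5 at -1.36 and H1-3 at -1.18, while H1-4 and H4C3 were at 0.29 and 0.25. Histone genes have near-identical copies, so the split of reads among them is uncertain, and quantile normalization left none higher. In the homologous recombination and Fanconi anaemia list 24 of 35 were lower and 3 higher, with a median of -0.34 (14 lower and 2 higher without the control library of B). The nuclease and helicase DNA2 was at -1.04, FANCA at -0.78, XRCC2 at -0.77 and BLM at -0.68, against FANCE at 0.50, RAD50 at 0.39 and NBN at 0.23. Of 35 mitosis genes 14 were lower and 3 higher (CENPA, NDC80 and HMMR), and 18 were not called, with a median of -0.16. The proliferation antigen MKI67 was at -0.72, DLGAP5 at -0.61, ASPM at -0.59 and the transcription factor FOXM1 at -0.46.

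Lipid synthesis genes were the other large group lower in B. In the sterol list, which passed the filter whole, 19 of 25 genes were lower, none was higher and 6 were not called, with a median of -0.72. HMGCS1 (ENSG00000112972), which makes HMG-CoA, stood at 12.61 and 12.93 in B and at 15.27 and 15.23 in C, 5.58-fold lower in B (-2.48 ± 0.09). INSIG1 (ENSG00000186480), itself an SREBP target, stood at 11.24 and 11.47 against 13.61 and 13.51 (-2.21 ± 0.08). IDI1 (ENSG00000067064), an isomerase of the isoprenoid branch, stood at 10.44 and 10.80 against 12.71 and 12.65 (-2.06 ± 0.08). The BRCA2 siRNA library was the higher of the B pair in each, and both B libraries were far below C.

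The squalene epoxidase SQLE differed by -1.37 ± 0.09 and the C4 demethylase component NSDHL by -1.58 ± 0.08. Of 10 fatty acid synthesis genes past the filter 7 were lower and 1 higher, with a median of -0.45. The citrate lyase ACLY differed by -1.66 ± 0.10, the synthase FASN by -1.62 ± 0.09 and the elongase ELOVL6 by -1.43 ± 0.08, and the acyl-CoA synthetase ACSL3 was at 0.27. FGFBP1 (ENSG00000137440), a secreted carrier of fibroblast growth factors and in none of the lists, stood at 11.39 and 11.79 against 13.82 and 13.85, 4.73-fold lower in B (-2.24 ± 0.08).

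Of 17 glycolysis genes 6 were lower (10 without the control library of C) and none higher. Over all 17945 genes 3238 were lower and 3763 higher. The list median was -0.17 and LDHA was at -0.72. In the hypoxia list 3 of 23 were higher and 8 lower, and 4 were lower without either B library. VEGFA, the angiogenic growth factor, was at 13.54 and 13.41 in B and at 11.96 and 11.89 in C (1.55 ± 0.08), and NDRG1 differed by 1.16 ± 0.11. The kinase-phosphatase PFKFB4 was at 7.60 and 7.61 against 9.40 and 9.27 (-1.73 ± 0.12), and EGLN3 and CA12 were at -0.85 and -0.76. Among p53 targets 13 of 30 were higher and 5 lower, with a median of 0.12 (0.07 without the BRCA2 siRNA library of B and 0.20 without the control library of B). GDF15 (ENSG00000130513), a stress cytokine that ATF4 also induces, stood at 11.02 and 10.62 against 8.52 and 8.63 (2.24 ± 0.10, 4.73-fold). GADD45A and PMAIP1 differed by 1.73 and 1.05, and the p53 targets ZMAT3 and POLH by -1.20 and -0.81.

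Of 15 host genes of small nucleolar RNAs and growth-linked long noncoding RNAs 9 were higher and 1 lower in B, with a median of 0.53. Spliced transcripts of several such hosts are known to be degraded by nonsense-mediated decay when they are translated. GAS5 stood at 14.68 and 14.42 in B and at 13.31 and 13.35 in C (1.21 ± 0.09), and ZFAS1 at 13.70 and 13.50 against 12.25 and 12.38 (1.28 ± 0.09). EPB41L4A-AS1 differed by 1.57 ± 0.08, SNHG8 by 1.10 and SNHG15 by 1.05. The small nucleolar RNAs themselves had a median of 0: 12 of the 114 past the filter were higher and 6 lower, and 1 was higher without the control library of B, 2 without the BRCA2 siRNA library of B and 2 without the control library of C.

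Markers of cell type were read to see whether the replicates held the same cells. Basal epithelial markers were present: the desmosomal cadherin DSG3 stood at 12.72 and 12.77 in B and at 11.89 and 11.90 in C, and the keratin KRT17 at 13.99 and 13.85 against 13.03 and 13.27. Of 24 basal markers 13 were higher in B and 1 lower (S100A2, -0.39), with a median of 0.36 (12 and 4 under quantile normalization; 12 and 6, with a median of 0.22, without the control library of C) and a summed level of 20.08 and 20.13 against 19.80 and 19.92 on the log2 scale. The laminin chain LAMB3 differed by 1.84 ± 0.11, the basal transcription factor TP63 by 0.91 and the Notch ligand JAG1 by 1.04, while the defining keratins KRT5 and KRT14 were at -0.31 and -0.16 and not called. Luminal keratins KRT8 and KRT18 were expressed and were at 0.13 and 0.16, but KRT19 and EPCAM stayed below the filter in these cells. None of the 8 luminal genes past the filter was called.

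Of 14 leukocyte and endothelial markers 4 passed the filter, and PTPRC, CD3E and CDH5, the defining genes of leukocytes, T cells and endothelium, had highest values of 3.10, -1.01 and -0.01 in any of the 11 libraries. Of the 4, KDR and CD14 were lower, at -1.11 and -0.74, TEK was higher, at 0.65, and ITGB2 was not called. The summed level of the list was 7.71 and 7.77 in B and 8.68 and 8.55 in C, and the share of this list in the other differences was not tested. Of 20 fibroblast and mesenchymal markers 4 were higher and 5 lower (1 lower without the control library of B, 3 without any of the other 3 libraries in turn), with summed levels of 19.60 and 19.69 against 19.40 and 19.29. COL1A2 stayed below the filter, but the other defining markers COL1A1, COL3A1, PDGFRB, DCN, LUM and THY1 passed it. Of these COL3A1 and THY1 were called lower, at -0.31 and -0.49, and the rest were not called. SPARC and SNAI2 were at -0.76 and 0.63. Keratinocyte differentiation genes were at a low level, with a summed level of 10.06 and 10.08 against 10.39 and 10.77. In that list 5 of 15 were lower, among them S100A8 and S100A9 at -0.97 and -1.02, and 2 were higher, SPRR2D at 2.36 ± 0.23 and KRT10 at 0.55. Without the control library of B 3 were lower and 1 higher.

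**Figure D3:**
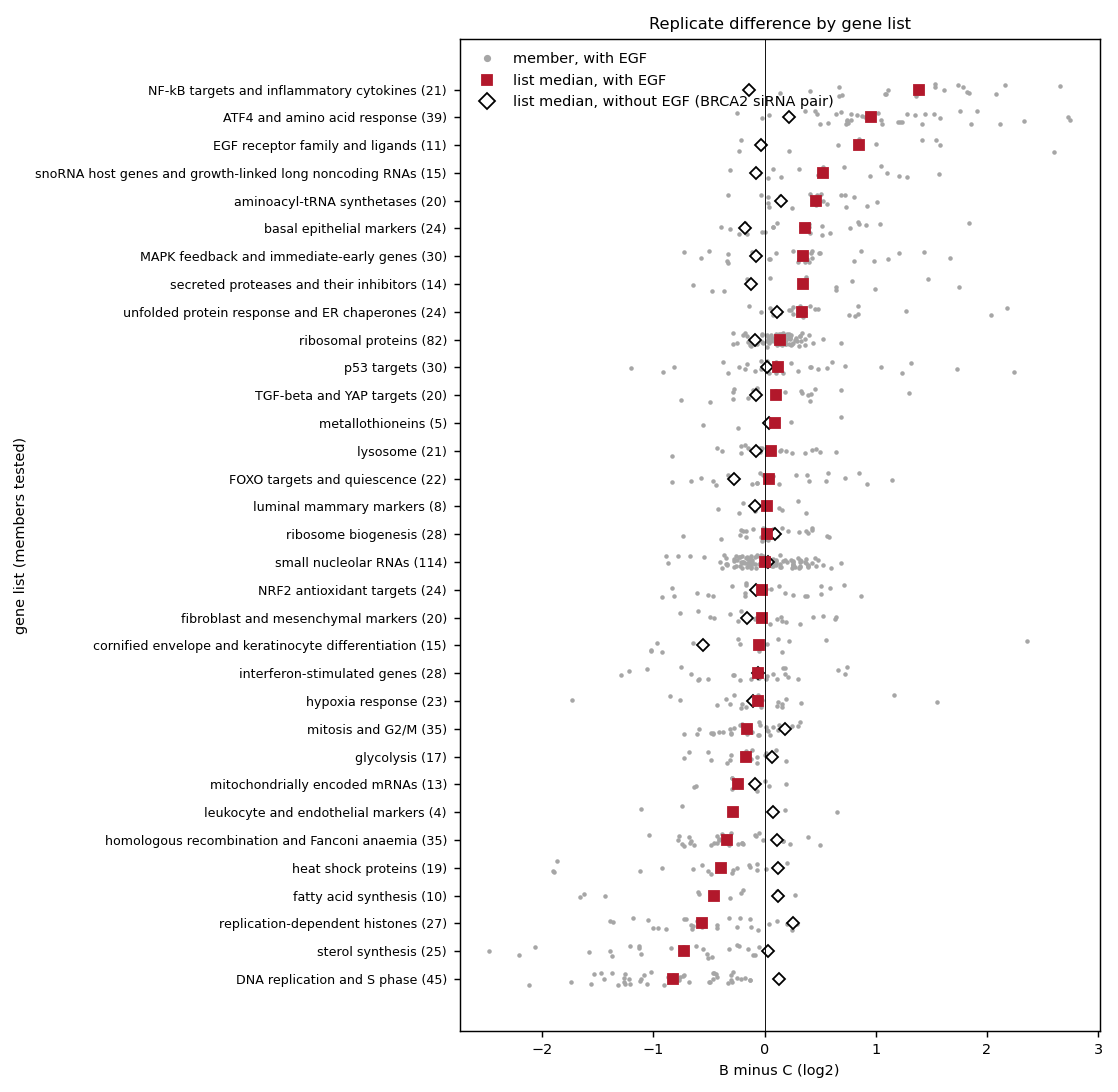
Rows are the 33 gene lists with the number of members tested, ordered by the list median, and the horizontal axis is B minus C on the log2 scale. Grey points are members with EGF, red squares the list medians with EGF and open diamonds the list medians in the BRCA2 siRNA pair without EGF; the squares run from -0.82 (DNA replication) to 1.39 (NF-kB), and the diamonds of those lists are at 0.13 and -0.14.

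Libraries without EGF were not used to choose the comparison, and there the same replicates gave another picture. Replicate B has 1 library without EGF, labelled BRCA2 siRNA. B minus C in the BRCA2 siRNA pair had an SD over genes of 0.25 and ranged from -1.86 to 1.33, and 19 genes were 2-fold or more higher (0.106%) and 51 lower (0.284%). Across genes it had an r of -0.01 with the mean of the 2 pairs with EGF, and 47.8% of genes had the same sign (a description). In the limma model with all 11 libraries 0 of 17945 genes were called for B against C without EGF, and 399 had an unadjusted p under 0.05. With only the 7 libraries of B and C 66 were called, 57 of them lower in B, and with only the 5 libraries without EGF 1 was. A single B library limits this test, and intervals are therefore given for the genes named.

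HBEGF stood at 9.17 in B without EGF and at 9.42 in C with the same siRNA. The model put its difference without EGF at -0.18, with a 95% interval of -0.87 to 0.52. For IL6, with 5.66 and 5.75, the interval was -1.04 to 0.56, and for SESN2, with 10.28 and 9.83, it was -0.40 to 0.79. On the lower side the interval was -0.42 to 0.66 for FAM111B (12.11 and 11.93), -0.37 to 0.57 for HMGCS1 (14.69 and 14.44) and -0.37 to 0.43 for PCNA (12.98 and 12.84). None of these 6 intervals reached the size of the difference with EGF. Over the 24 genes with the largest differences with EGF among those above the median expression (12 a side), the BRCA2 siRNA pair without EGF ranged from -0.63 to 0.45, and 10 of the 24 had the same sign in both media.

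Of the 234 genes 2-fold or more higher in B with each siRNA, 118 were also higher in B without EGF, with a median of 0. The pair without EGF was 2-fold or more higher in 2 of them, ALOX5AP and DMBT1, and 2-fold or more lower in IGFBP3 (the first 2 named after their values were seen). Of the 160 that were 2-fold or more lower, 64 were lower without EGF, with a median of 0.04 and none 2-fold lower. The list medians without EGF were 0.22 for ATF4 genes, 0.11 for the unfolded protein response, -0.14 for NF-kB, -0.03 for the EGF receptor family, 0.13 for DNA replication, 0.26 for histones, 0.03 for sterol synthesis and 0.12 for heat shock genes. Those of the cornified envelope (-0.55), FOXO (-0.27) and basal (-0.18) lists were the most negative, and all 24 basal markers lay between -0.89 and 0.06. No gene tested was called without EGF in the model of all 11 libraries, so no member of any of the 33 lists was.

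**Figure D4:**
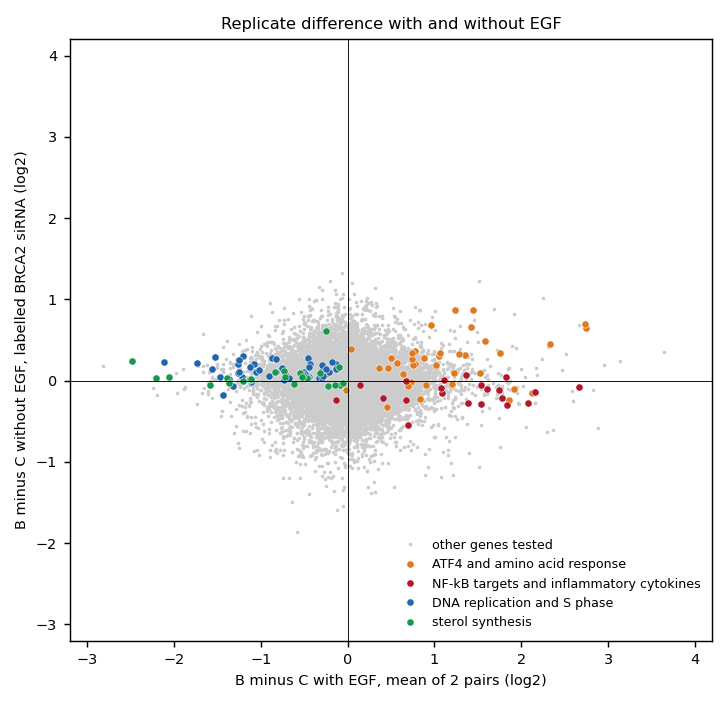
Each point is 1 of the 17945 genes, with B minus C with EGF (mean of the 2 siRNA pairs) on the horizontal axis and B minus C without EGF in the BRCA2 siRNA pair on the vertical axis, both on the log2 scale. The 4 coloured lists spread along the horizontal axis and stay near 0 on the vertical one, and over all genes r was -0.01.

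The difference between media was tested as the coefficient with EGF minus the coefficient without it in the model of all 11 libraries. In limma 1229 genes passed an adjusted p of 0.05 (6.85%), 733 with B minus C higher with EGF (4.08%) and 496 lower (2.76%), and 486 of them by 2-fold or more. Under quantile normalization the split was 559 and 627, out of 1186. One term of this contrast was used to choose the comparison, so counts among genes picked by it are not independent: 191 of the 234 and 130 of the 160 genes above passed, and all 24 of the genes with the largest differences above the median expression did (adjusted p from 0.0012 to 0.0122). The count fell to 496 without the control library of B with EGF, 167 without the BRCA2 siRNA library of B with EGF, 57 without the control library of C with EGF and 189 without the BRCA2 siRNA library of C without EGF. It was 0 with no filter (5384 at an unadjusted p under 0.05).

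By list, 16 of 21 NF-kB genes, 20 of 39 ATF4 genes, 7 of 11 EGF receptor family genes, 9 of 24 basal markers and 6 of 24 unfolded protein response genes passed with a higher value with EGF, and none of these lists had a member that passed lower. On the other side 26 of 45 DNA replication genes, 15 of 25 sterol genes, 12 of 27 histones, 6 of 35 homologous recombination genes, 6 of 19 heat shock genes and 4 of 10 fatty acid genes passed with a lower value, and none passed higher. Of 35 mitosis genes 1 passed, lower with EGF. Over all genes tested 4.08% passed higher and 2.76% lower. The MAPK, p53, hypoxia, NRF2, fibroblast and cornified envelope lists had members that passed in each direction. The lists were chosen with earlier results known, and 1 term of the contrast was used to choose the comparison. These list counts are therefore a description. IGFBP3 (ENSG00000146674), an insulin-like growth factor binding protein, had an interval without EGF that did not include 0, at -1.42 to -0.01, and so had the small nucleolar RNAs SNORA70 and SNORD63B. These intervals are not adjusted for the number of genes tested, and no gene was called without EGF. The values of IGFBP3 were higher in B with EGF (9.66 and 9.15 against 7.77 and 8.02). Without EGF its single B library was lower (9.73 against 10.79 with the BRCA2 siRNA).

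The EGF effect within each replicate is given as a description. Its values for B and C reuse the chosen libraries with EGF, so their gap partly follows from that choice. In the libraries labelled BRCA2 siRNA the median of with EGF minus without EGF over the NF-kB genes was 1.04 in B, -0.39 in C and 0.52 in A, and in the control libraries it was 0.19 in C and 1.82 in A. For the EGF receptor family it was 1.02 in B, -0.32 in C and 0.39 in A (control siRNA: 0 in C and 1.54 in A). On both lists the A medians were positive with either siRNA, as in B. ATF4 genes had medians of 1.09 in B, 0.38 in C and 0.08 in A with BRCA2 siRNA, and of 0.83 in C and 1.60 in A with control siRNA.

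The median over DNA replication genes was negative in B, at -0.67, against 0.33 in C and 0.10 in A, and 0.72 in C and 0.70 in A with control siRNA. Sterol genes gave -0.24 in B, 0.39 in C and 0.50 in A (control siRNA: 0.61 and 0.75). HMGCS1 itself was at -1.75 in B, 0.79 in C and 0.55 in A with BRCA2 siRNA, and PCNA at -1.23, 0.36 and 0.07. The heat shock list had a negative median in B, at -0.22, and positive ones in C and A (0.39 and 0.05; control siRNA: 0.54 and 0.18). Its member HSPA1A was negative in all 5 pairs: -2.05 in B, -0.16 in C and -0.96 in A, and -0.36 in C and -2.19 in A with control siRNA. Replicate A was centred on the other libraries gene by gene in the deposited table, which makes its level against B and C unreadable, so no level of A is given. The step that did this is not stated, and whether it left the differences within A as they were is not known. The difference of these effects between A and the other replicates was not tested.

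**Figure D5:**
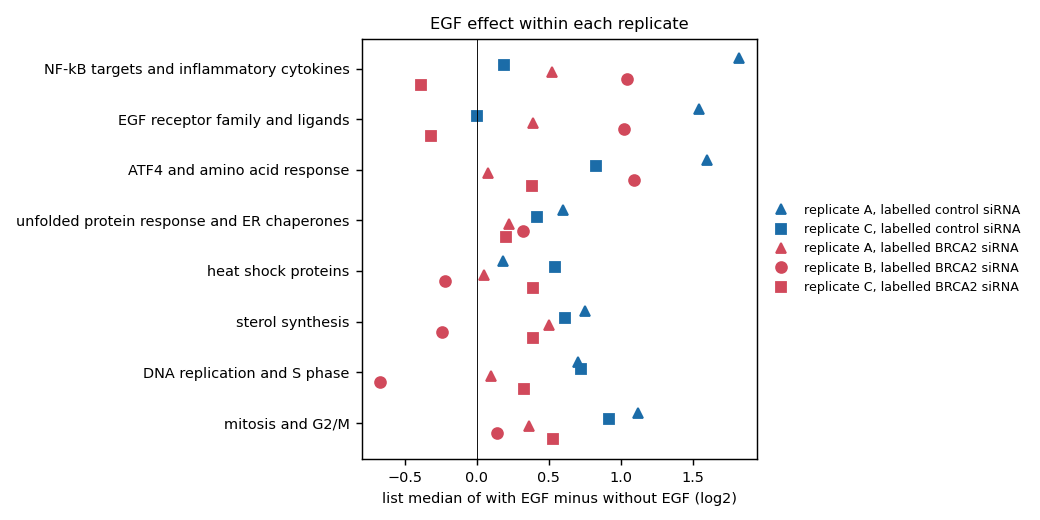
The horizontal axis is the median over a list's members of the log2 value with EGF minus that without EGF, within 1 replicate and 1 siRNA label, and the rows are 8 lists. Values of B and C reuse the libraries with EGF by which the comparison was chosen. Circles are B, squares C and triangles A, red for libraries labelled BRCA2 siRNA and blue for control; the B circle is the highest red point for the NF-kB, receptor family and ATF4 lists and the lowest for DNA replication, sterol and heat shock genes.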

How the data were processed

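RNA sequencing was read in 4 libraries of hTert-HME1 cells with EGF (replicates B and C, control or BRCA2 siRNA), with the other 7 libraries in the tests of the difference without EGF and between media. The authors deposited 1 table of log2 values for 40460 Ensembl genes and 11 libraries (from -2.94 to 20.62); the counter and the transform are not given here. TopHat2 2.0.11, DESeq2, limma and hg19 are named in the submitters' processing notes, with no role or order. In each gene the mean of the 4 replicate A libraries equalled that of the 7 others (largest difference 7.2e-09), so A had been centred.

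Values were used as deposited, with no pseudocount. Linear models with a mean-variance trend and empirical Bayes shrinkage were fitted with R 4.3.3 and its package limma 3.58.1; tests were two-sided, with Benjamini-Hochberg adjustment over all genes tested and a threshold of 0.05. The main model held siRNA and replicate (1 residual degree of freedom), and its prior degrees of freedom were infinite, so genes of one level share one standard error. The model for the difference without EGF and between media held the 4 siRNA by EGF groups and a replicate term in each medium (3 residual degrees of freedom). The labels call A, B and C biological replicates without saying how the cultures were kept apart, so p-values measure the spread between these libraries. Symbols were matched for 30039 genes (74.2%).

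The comparison, its members and the gene lists were chosen with earlier results of these data known. Named genes were the 12 on each side with the largest difference among genes with a symbol, a mean in the higher replicate above the median gene and B and C libraries that did not overlap. To these came, at any level, up to 6 members of each list by p, then up to 6 a side for the difference between media (above the median gene), BRCA2 and the defining cell type markers. Members called against their list's direction, ERBB2 and CHORDC1 among them, and also EGFR, IL1RL1, ALOX5AP and DMBT1 were named after their values were seen. Alternatives were no siRNA block, no filter, a stricter filter (6.64), quantile normalization, median centring, other sets of libraries and leaving out each library. Promoters came from a RefSeq table of GRCh38.p14.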

Additional observations from a re-analysis of the deposited data

Results flagged for a closer look

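B minus C differed between media, by the test of the difference itself, in 1229 genes. Among the genes named for this test, B minus C was higher with EGF than without it by 2.78 in HBEGF, 2.74 in CLDN1, 2.39 in NIBAN1, 2.32 in IL1A and in PTX3 and 2.22 in IGFBP3, on the log2 scale. It was lower with EGF by -2.94 in FAM111B, -2.58 in HMGCS1, -2.18 in INSIG1, -2.10 in FGFBP1, -2.02 in SKP2 and -2.01 in IDI1. CLDN1, a tight junction claudin, stood at 10.66 and 10.55 in B and at 8.62 and 8.02 in C with EGF, and at 8.97 in B and 9.61 in C without EGF with the BRCA2 siRNA. NIBAN1, a stress-responsive protein, stood at 11.62 and 11.36 against 9.16 and 9.50 with EGF, and at 9.90 and 10.17 without it. With no filter none of these 12 genes was called. Of the 12, 9 stayed called without the control library of C with EGF, 9 without the BRCA2 siRNA library of C without EGF and 11 without the BRCA2 siRNA library of B with EGF. All 12 stayed called in the other settings that were run.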

How the results depend on the processing

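No paired analysis was possible because pairing by letter would remove the contrast, the letter being what was compared. Libraries were paired by siRNA instead, and without that block 6394 genes were called against 7001. Fits of B minus C with EGF that left out 1 library also had no siRNA block, so they differ from the main fit in both. The 24 genes with the largest differences among those above the median expression kept their direction and call in every setting except no filter, where none was called. With no filter the prior degrees of freedom were 0.934, against infinite in the main model. The cause of the lost calls was not tested. Of the 204 named genes tested, 194 lost their call with no filter, 19 without the control library of B and 10 with all 11 libraries. Counts for B minus C with EGF were 0 with no filter, 4026 to 6237 when 1 library was left out, and 5029 to 6970 in the other settings. For B minus C without EGF the count of 0 became 1 with the 5 libraries without EGF, 66 with the 7 libraries of B and C, and 0 to 2 when 1 library was left out. For the difference between media 1229 became 3693 with the 7 libraries of B and C, 0 with no filter, and 57 to 1674 when 1 library was left out. When 1 library was left out MT-ND1 (-0.24) ranged from -0.51 to 0.04, MT-ND2 (-0.25) from -0.58 to 0.07 and the median of the mitochondrial list (-0.24) from -0.48 to 0.06; the sign turned without the control library of C with EGF. The lysosome median turned from 0.06 to -0.02 under quantile normalization. The cause of these changes was not tested. Depth limits are unknown, since the table holds no counts, and differences of genes near the filter may be compressed by a transform that is not given.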

Other observations

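Other gene groups had medians nearer 0 between B and C with EGF or went both ways. Several counts changed when 1 library was left out together with the siRNA block. Of 82 ribosomal protein genes 14 were higher in B and 2 lower, with a median of 0.14; under quantile normalization the counts were 6 and 11, with a median of 0.02. Leaving out 1 library gave 52 and 1 (BRCA2 siRNA of C; median 0.27), 9 and 9 (control of C; median 0.02), 5 and 0 (BRCA2 siRNA of B) or 2 and 0 (control of B). Of 28 ribosome biogenesis genes 8 were higher and 4 lower (6 and 7 under quantile normalization, 6 and 2 without either B library), with NOP58 at 0.56, RRP12 at 0.58 and UTP20 at -0.73. In the list of NRF2 targets, which protect against oxidants, 7 of 24 were higher and 6 lower: SQSTM1 and AKR1C1 were at 0.71 and 0.59, and PGD and the haem oxygenase HMOX1 at -0.92 and -0.83. Of 5 metallothionein-list genes past the filter 2 were higher (MT1E at 0.24 and the zinc exporter SLC30A1 at 0.69) and MT2A was lower, at -0.55. Of 22 FOXO targets 9 were higher and 5 lower, with GABARAPL1 at 1.15 and SESN3 at -0.57. Of 20 TGF-beta and YAP targets 8 were higher and 3 lower (5 and 2 without the BRCA2 siRNA library of B, 8 and 5 without that of C, 8 and 1 without the control library of B), with INHBA at 1.30 and ID3 at -0.75. Of 21 lysosome genes 6 were higher and 3 lower (3 and 3 without the BRCA2 siRNA library of B), with TFE3 at 0.64 and MCOLN1 at -0.83. Of 13 mitochondrially encoded mRNAs 7 were lower and none higher, and leaving out 1 library gave 2 lower (either B library), 3 (control of C) or 10 (BRCA2 siRNA of C), and 1 higher without the BRCA2 siRNA library of B or the control library of C, with MT-ATP6 at 11.66 and 11.32 in B against 12.39 and 11.85 in C.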
